A study of Mus musculus with 26 samples.

Results

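The genes described here are 10 markers of hypertrophic cartilage and early bone, chosen by name: Col10a1, Ihh, Pth1r, Ibsp, Spp1, Alpl, Runx2, Sp7, Mef2c and Panx3. All 10 were found among the 24340 gene symbols listed in each of 2 expression tables. The tables hold bulk polyA RNA sequencing of mouse forelimbs at E13.5 in 26 libraries, made under 2 ways of removing Hic1, the gene of a transcriptional repressor. The conventional table holds wild type (Hic1 +/+, n = 3), heterozygous (Hic1 +/-, n = 3) and knockout (Hic1 -/-, n = 3) libraries, in which the change is present in every cell. The conditional table holds controls (Hic1 f/+ without Cre, n = 5), heterozygotes (PxCre; Hic1 f/+, n = 5) and knockouts (PxCre; Hic1 f/f, n = 7). Every conditional group therefore carries at least 1 floxed allele, and the Cre is driven by Prrx1, which is active in limb bud mesenchyme, so cells outside that lineage are not its target. Strain and sex are not given in the labels. No label tells whether the libraries of a group came from different embryos or litters, so each p-value reflects only how these libraries scatter, which may be technical. Each column name also carries a pair of letters that no label explains. The name of conditional control 2 alone carries a further tag, MA, also unexplained. Conventional replicate 1 of every group carries CH and the other 6 libraries CL. In the conditional table NZ marks 5 libraries (controls 1 and 2, heterozygote 1, knockouts 1 and 2), OB 9 (control 3, heterozygotes 3, 4 and 5, knockouts 3 to 7), OC 2 (controls 4 and 5) and OA 1 (heterozygote 2).

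Long bones form on a cartilage template whose chondrocytes stop dividing, enlarge and become hypertrophic before mineral and bone replace them. Prehypertrophic chondrocytes secrete Indian hedgehog (Ihh), which raises parathyroid hormone-related protein at the joint ends, and that peptide acts through its receptor Pth1r to hold other chondrocytes back from hypertrophy. Mef2c and Runx2 are transcription factors that drive hypertrophy, Runx2 and Sp7 (osterix) are needed for osteoblasts, Col10a1 is the collagen of hypertrophic cartilage, Panx3 is a channel protein of hypertrophic chondrocytes and osteoblasts, Alpl is the alkaline phosphatase of mineralising tissue, and Ibsp (bone sialoprotein) and Spp1 (osteopontin) are matrix proteins of mineralising cartilage and bone.

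The sequences before the starts of Col10a1, Ibsp and Spp1 are shown because Col10a1 and Ibsp varied most of the 10 genes between conditional libraries, while Spp1, which lies near Ibsp on chromosome 5, varied less. They are the 150 bases before the RefSeq start (build GRCm38.p6, plus strand, 5′ to 3′), at chr10:34389831-34389980 for Col10a1, chr5:104299137-104299286 for Ibsp and chr5:104434961-104435110 for the upstream start of Spp1. Capitals mark matches on either strand to 4 short motifs. The TATA box was searched as TATAAA. The CCAAT box was searched under its own letters. The core that RUNX proteins bind was searched as TGTGGT. A homeodomain core was searched as TAATTA.
Col10a1: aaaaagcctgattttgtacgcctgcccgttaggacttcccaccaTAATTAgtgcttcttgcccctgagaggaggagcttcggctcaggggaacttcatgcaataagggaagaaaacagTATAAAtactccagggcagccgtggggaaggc
Ibsp: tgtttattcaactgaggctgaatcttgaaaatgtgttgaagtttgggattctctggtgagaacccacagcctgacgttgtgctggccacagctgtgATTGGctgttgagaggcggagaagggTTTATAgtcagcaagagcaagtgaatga
Spp1: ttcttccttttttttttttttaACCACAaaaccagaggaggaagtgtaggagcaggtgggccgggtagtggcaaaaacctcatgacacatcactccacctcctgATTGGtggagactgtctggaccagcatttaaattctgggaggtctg
Counting -1 as the base just before the start, the TATAAA match begins at -32 in Col10a1, on the gene's own strand, and at -28 in Ibsp, on the opposite strand, so it reads TTTATA there. The letters TATAAA do not occur in the printed Spp1 window. The CCAAT box is matched on the opposite strand at -54 in Ibsp and at -46 in Spp1, TGTGGT on the opposite strand at -128 in Spp1, and TAATTA at -106 in Col10a1. No match overlaps another. Of 32851 promoter windows of this length, 7.57% hold TATAAA, 24.5% CCAAT, 8.40% TGTGGT and 2.73% TAATTA. Of the 10 genes, 8 have a start in the table of promoters used here.

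FPKM is the number of sequenced fragments scaled by transcript length and by the total mapped in the library, so levels of different genes are compared per length. In wild type limbs Pth1r was the highest of the 10, at 56.1 ± 6.65 FPKM (SD, n = 3), followed by Mef2c at 25.3 ± 4.97 and Runx2 at 9.55 ± 0.438. The libraries of these 3 genes did not overlap with those of the next gene in the order. Alpl (6.12 ± 0.736), Ihh (5.62 ± 0.554), Panx3 (5.19 ± 1.6) and Sp7 (4.38 ± 0.309) came next, and neighbours among these 4 overlapped. Col10a1 (2.21 ± 0.459), Ibsp (1.95 ± 0.973) and Spp1 (0.862 ± 0.301) were lowest and overlapped in turn. In the conditional controls Pth1r (49.1 ± 4.57, n = 5) and Mef2c (28.1 ± 3.61) again stood above the rest without overlap. From Panx3 (7.31 ± 3.72) down to Col10a1 (2.36 ± 2.31) every neighbour overlapped, with Ibsp at 6.74 ± 11.3 in the middle of that order. The tables were normalised separately, so levels across them are set side by side only. Ihh ran from 4.53 to 11 FPKM in the conventional libraries and from 1.27 to 5.87 in the conditional ones, while Spp1 ran from 0.415 to 1.78 and from 1.44 to 5.49.

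No member had a mean under 1 FPKM in every group of a table, so by that rule none of the 10 was barely on. Ibsp was the least steady. It ranged from 0.0296 to 3.88 FPKM over the 9 conventional libraries and from 0 to 26.8 over the 17 conditional ones, with a coefficient of variation of 104% and 181%. Pth1r, at 15.5% and 7.84%, and Runx2, at 8.24% and 15.3%, varied least in one or the other table. Later genes of the same tissues were barely on, with a mean under 1 FPKM in all 6 groups. In terminal cartilage that held for Mmp13, the collagenase of the last hypertrophic cells, which reached 0.0632 FPKM at most in the conventional libraries and 0.119 in the conditional ones. In the list of 15 osteoblast matrix genes it held for 5, the osteocalcin genes Bglap, Bglap2 and Bglap3, the osteocyte gene Dmp1 and Mepe, which was listed at 0 in all 26 libraries. Dspp, a tooth matrix gene beside Dmp1 on chromosome 5, reached 0.255 FPKM at most in the conventional table and 0.0865 in the conditional one. Other bone genes were on, such as Phex, an osteoblast endopeptidase, with a median of 3.82 FPKM in the conventional libraries and 4.65 in the conditional ones.

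**Figure D1:**
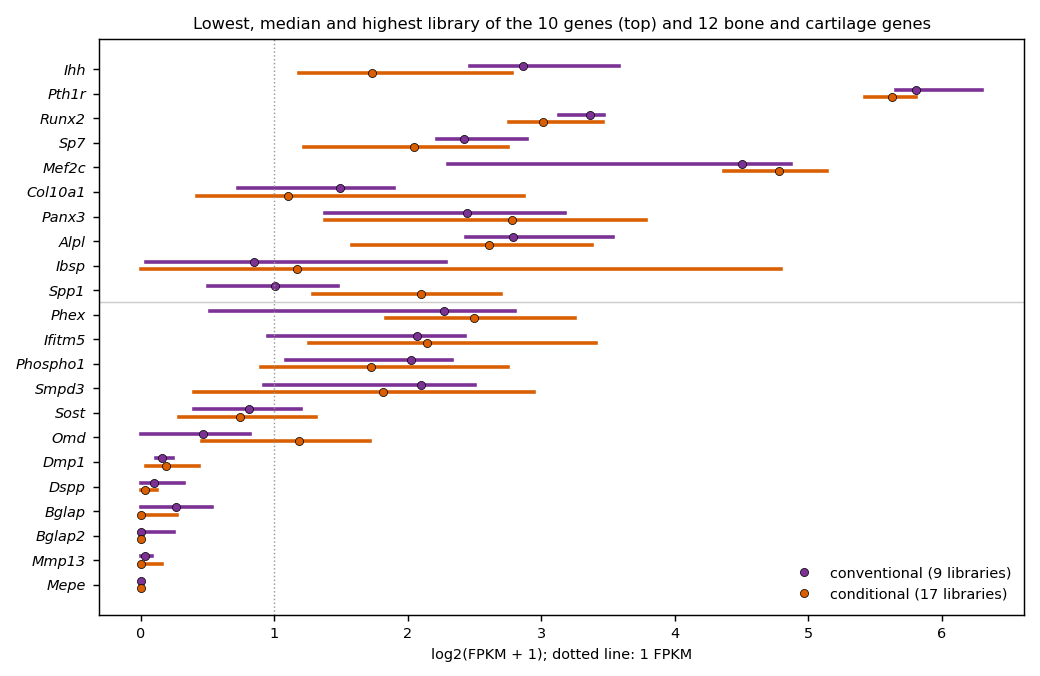
Lowest, median and highest library of each of the 10 genes (above the line) and of 12 other bone and cartilage genes, as log2(FPKM + 1), in the 9 conventional and 17 conditional libraries. Ibsp spans the widest range, reaching 26.8 FPKM, while Dmp1, Dspp, Bglap, Bglap2, Mmp13 and Mepe lie under 1 FPKM in every library.

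Hic1 followed the labels, at 56.5 ± 7.56 FPKM in wild type, 33.5 ± 3.42 in heterozygotes and 1.7 ± 0.748 in knockouts of the conventional table (n = 3 each). In the conditional table it stood at 60.6 ± 5.52 in controls (n = 5), 31.9 ± 2.52 in heterozygotes (n = 5) and 4.82 ± 1.13 in knockouts (n = 7). The forelimb gene Tbx5 was at 41.9 FPKM or above in every library, and the hindlimb genes Pitx1 and Tbx4 were at 5.24 and 9.18 or below. The cartilage genes Col2a1 and Acan were at 120.0 and 4.31 or above, and the 8 osteoclast genes were split. Of these, 5 were barely on by the rule above (Ocstamp, Dcstamp, Calcr, Tnfrsf11a and Atp6v0d2), whereas Nfatc1 was at 16.3 FPKM or above, Ctsk at 4.16 or above and Acp5 at 1.89 or above in every library. The files hold no counts. Low FPKM values step by whole fragments, and for Ibsp and Col10a1 these steps give fragment numbers. Among values under 40 fragments (13 for Ibsp, 7 for Col10a1) the largest distance from a whole number was 0.137, where under 0.15 was accepted. The smallest Ibsp value was taken as 1 fragment and the smallest Col10a1 value as 14. Larger fragment numbers were not checked in this way and are estimates. By the same steps the libraries' depths lay between 0.581 and 1.11 times that of conditional control 1. The ratio used was shared by 8.57% to 12.7% of the low genes compared in conventional libraries. In the other conditional libraries it was shared by 19.4% to 32.0%, so conventional depths and fragment numbers are less certain. Counting limits cover counting error only. Conventional knockout replicate 1 stands apart as a library, with a median of 0.865 FPKM over all genes against 1.28 to 1.53 in the other conventional libraries and the fewest genes above 0 of that table (16785). Results of the conventional table that it moves are followed by their values without it. In bulk tissue, fewer cells of a type and less RNA per cell cannot be told apart.

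The conventional knockout was compared with wild type to ask what loss of Hic1 in every cell does to these genes. None of the 9 members tested passed limma's test at an adjusted p under 0.05, against 0.0236% of the 12717 genes tested (3 genes). Spp1, with a mean of 0.973 FPKM over the 9 libraries, was under the filter of 1 FPKM and not tested. Of the 9, 4 had higher and 5 lower estimates, with a median log2 difference of -0.18 against -0.02 for all genes tested. Without knockout 1 all 9 had lower estimates, none called, with the same median. Col10a1, Panx3, Ibsp and Runx2 had all 3 knockout libraries below all 3 wild type libraries, 4 of 9 members all lower, where 14.4% of all genes tested did not overlap in either direction and 7.86% were lower without overlap.

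Among the signals, Ihh stood at 6.26, 5.27 and 5.34 FPKM in wild type and at 11, 5.18 and 4.53 in knockouts. Only knockout 1 was above the wild type libraries, and the difference was 0.17 ± 0.26 (log2, ± SE, limma adjusted p = 0.712), or -0.18 without that library. Pth1r stood at 63.2, 55.0 and 50.1 in wild type and 77.9, 52.1 and 49.4 in knockouts, a difference of 0.07 ± 0.18 (adjusted p = 0.827), or -0.14 without knockout 1. Its annotated exons overlap Myl3, a muscle myosin gene on the other strand, and the strand setting used in counting is not given in the sources used here. Other genes of the hedgehog and parathyroid hormone-related protein loop gave no call among 9 tested, with Hhip, a hedgehog-binding inhibitor, at 2.91 ± 1.66 FPKM in knockouts and 5.51 ± 1.49 in wild type (-0.8, adjusted p = 0.596, or -0.44 without knockout 1).

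Among the transcription factors, Runx2 stood at 9.88, 9.05 and 9.71 FPKM in wild type and at 7.77, 8.83 and 8.26 in knockouts. The knockout mean was 0.868 times that of wild type, and the difference of -0.18 ± 0.1 did not pass (adjusted p = 0.596). Runx2 shares exonic bases with Runx2os1 on the other strand, so here too reads of the partner cannot be told apart if strand was not used. Sp7 stood at 4.36, 4.69 and 4.08 in wild type and 6.43, 3.8 and 3.66 in knockouts, so the groups overlapped and the difference was 0.03 ± 0.19 (adjusted p = 0.926), or -0.18 without knockout 1. Mef2c stood at 19.5, 28.1 and 28.3 in wild type and at 3.94, 15.9 and 21.7 in knockouts. Its lowest value belongs to knockout 1, and the difference of -1.07 ± 0.51 (adjusted p = 0.596) became -0.41 without that library. Among 10 other osteoblast regulators tested none was called, with Msx2, a homeobox factor, at 30.6 ± 4.38 in knockouts and 20.7 ± 1.61 in wild type (adjusted p = 0.448).

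Among the matrix and mineral genes, Col10a1 stood at 2.34, 2.59 and 1.7 FPKM in wild type and at 0.677, 0.659 and 0.993 in knockouts. Every knockout library was below every wild type library, knockout 1 included, and the mean was 0.352 times that of wild type. The difference of -0.85 ± 0.16 had an unadjusted limma p of 0.000686 and an adjusted p of 0.256. Col10a1 lies inside Nt5dc1 on the other strand and shares exonic bases with it. Panx3 stood at 4.44, 7.03 and 4.11 in wild type and at 2.64, 1.6 and 2.48 in knockouts, without overlap. Its difference was -0.92 ± 0.24 (adjusted p = 0.449). Ibsp stood at 1.69, 3.02 and 1.12 in wild type and at 0.322, 0.0296 and 0.103 in knockouts, and its difference was -1.31 ± 0.41 (adjusted p = 0.548). These Ibsp values rest on 57, 89 and 33 fragments in wild type and on 10, 1 and 3 in knockouts. For Col10a1 the fragments were 131, 127 and 83 against 35, 37 and 48. Alpl stood at 6.67, 6.4 and 5.28 in wild type and at 10.6, 5.92 and 4.87 in knockouts, a difference of 0.14 ± 0.26 (adjusted p = 0.763), or -0.15 without knockout 1. Spp1 stood at 0.555, 0.875 and 1.16 in wild type and at 0.415, 1.01 and 1.78 in knockouts, and the groups overlapped.

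Weighting libraries by their quality (limma's array weights) moved the number of genes called from 3 to 980 of 12717. It made calls of 3 of the 9 members tested, Col10a1, Mef2c and Panx3, all lower in knockouts. Over 20 settings the adjusted p ran from 0.021 to 0.829 for Col10a1, from 0.0376 to 0.829 for Mef2c and from 0.0223 to 0.829 for Panx3. With the replicate number as a block 1 gene and no member was called. The difference of Col10a1 was of like size within each set of column letters, at -0.99 for CH (1 library against 1) and -0.78 for CL (2 against 2). Ibsp gave -1.03 and -1.45 and Panx3 -0.58 and -1.09.

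In the 15 osteoblast matrix genes all 8 tested had lower estimates and none was called, with a median of -0.63 against -0.02 for all genes. Without knockout 1 all 8 were again lower and none was called, with a median of -0.84. Phex stood at 1.42 ± 0.933 FPKM in knockouts and 5.23 ± 1.22 in wild type (adjusted p = 0.341), and Tnn, a tenascin of bone, at 1.17 ± 0.281 and 2.64 ± 0.433 (adjusted p = 0.256). Among 14 chondrocyte genes 11 had lower and 3 higher estimates, none called, with a median of -0.31, or -0.46 without knockout 1. Matn3, a cartilage matrilin, stood at 5.39 ± 1.44 in knockouts and 13 ± 0.717 in wild type (adjusted p = 0.251), and Lect1, or chondromodulin, at 33.5 ± 2.61 and 69.3 ± 6.09 (adjusted p = 0.256). The summed FPKM of the 14 chondrocyte genes ran from 1160 to 1840 in knockouts and from 1490 to 1540 in wild type. The 1840 belongs to knockout 1. The part of this sum in the values of Col10a1, Panx3 and Ibsp was not tested.

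**Figure D2:**
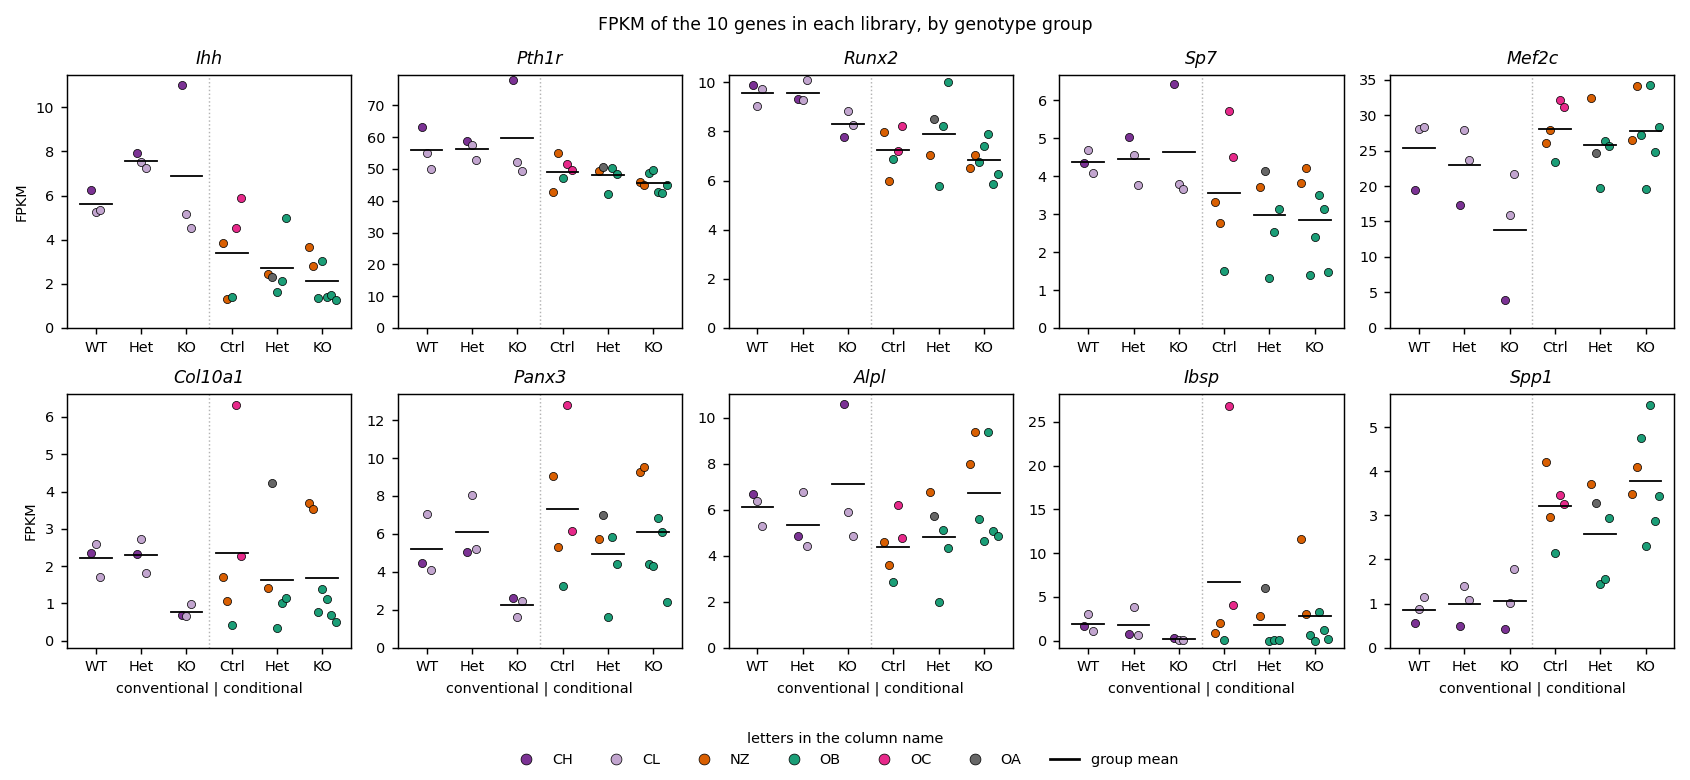
FPKM of each gene in every library, in 6 genotype groups (WT wild type, Het heterozygote, KO knockout, Ctrl control), with the group mean as a line and points coloured by the letters of the column name. Conventional knockout Col10a1 and Panx3 lie below wild type (0.659 to 0.993 against 1.7 to 2.59 FPKM for Col10a1), and conditional Ibsp reaches 26.8 FPKM in control 4.

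Conventional heterozygotes stayed near wild type, and no member was called, against 0% of 12717 genes. The limma test gave an unadjusted p under 0.05 to 0 of the 9 members and to 47 genes in all. Ihh was the member whose libraries did not overlap, at 7.94, 7.54 and 7.25 FPKM in heterozygotes against 5.27 to 6.26 in wild type (difference 0.38 ± 0.26, adjusted p = 1.0). That is 1 of 9 members, where 3.81% of all genes tested did not overlap. Knockouts were also set against heterozygotes, again with no member called, against 0.00786% of genes. Col10a1 was at 0.777 ± 0.188 FPKM in knockouts and 2.29 ± 0.461 in heterozygotes (-0.89 ± 0.16, adjusted p = 0.608), and Panx3 at 2.24 ± 0.562 and 6.1 ± 1.68 (-1.12 ± 0.24, adjusted p = 0.697). Ibsp was at 0.152 ± 0.152 and 1.78 ± 1.82 (-1.1 ± 0.41, adjusted p = 0.697). Both comparisons of the knockout use the same knockout libraries. The 4 members that did not overlap here, of 9, were Col10a1, Panx3, Ibsp and Runx2, all lower, where 9.93% of genes did not overlap in either direction and 6.21% were lower without overlap.

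The conditional knockout was compared with its controls to ask what loss of Hic1 in limb mesenchyme does. No member was called among the 10 tested, against 0.263% of 12918 genes (34 genes), and no member's groups were free of overlap, where 0.689% of genes were. Of the 10, 2 had higher and 8 lower estimates, with a median of -0.15 against 0.01 for all genes.

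Alpl had the smallest p of the 10. It stood at 4.62, 3.6, 2.84, 6.19 and 4.76 FPKM in controls and between 4.65 and 9.41, with a median of 5.6, in the 7 knockouts. All 7 knockouts were above the control mean although the groups overlapped, and the difference of 0.5 ± 0.22 did not pass (limma adjusted p = 0.751). It was 0.9 with column letters as a term. Spp1 stood at 4.22, 2.96, 2.14, 3.47 and 3.26 in controls and between 2.31 and 5.49, with a median of 3.48, in knockouts (0.17 ± 0.19, adjusted p = 1.0). Ibsp stood at 0.838, 1.97, 0.0283, 26.8 and 4.11 in controls and between 0 and 11.6, with a median of 1.25, in knockouts. Control 4 alone lay above all knockouts, and the difference was -0.52 ± 0.76 (adjusted p = 1.0). Col10a1 stood at 1.72, 1.06, 0.428, 6.31 and 2.28 in controls and between 0.509 and 3.68, with a median of 1.13, in knockouts (-0.24 ± 0.39, adjusted p = 1.0). Panx3 stood at 9.03, 5.3, 3.26, 12.8 and 6.13 in controls and between 2.41 and 9.52, with a median of 6.09, in knockouts (-0.2 ± 0.32, adjusted p = 1.0). For Col10a1, Panx3 and Ibsp, and also for Sp7 (5.73 FPKM), the highest library of the whole table was control 4.

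Ihh stood at 3.84, 1.33, 1.4, 4.54 and 5.87 FPKM in controls and between 1.27 and 3.66, with a median of 1.51, in knockouts (-0.41 ± 0.28, adjusted p = 0.949). Controls 4 and 5, the OC libraries, were the highest of both groups. Pth1r was at 49.1 ± 4.57 in controls and 45.6 ± 2.76 in knockouts (-0.1 ± 0.06, adjusted p = 0.923). Runx2 (7.25 ± 0.893 and 6.82 ± 0.694), Sp7 (3.57 ± 1.62 and 2.85 ± 1.12) and Mef2c (28.1 ± 3.61 and 27.8 ± 5.14) differed by -0.08 ± 0.1, -0.23 ± 0.25 and -0.03 ± 0.13 (adjusted p = 1.0 for each).

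**Figure D3:**
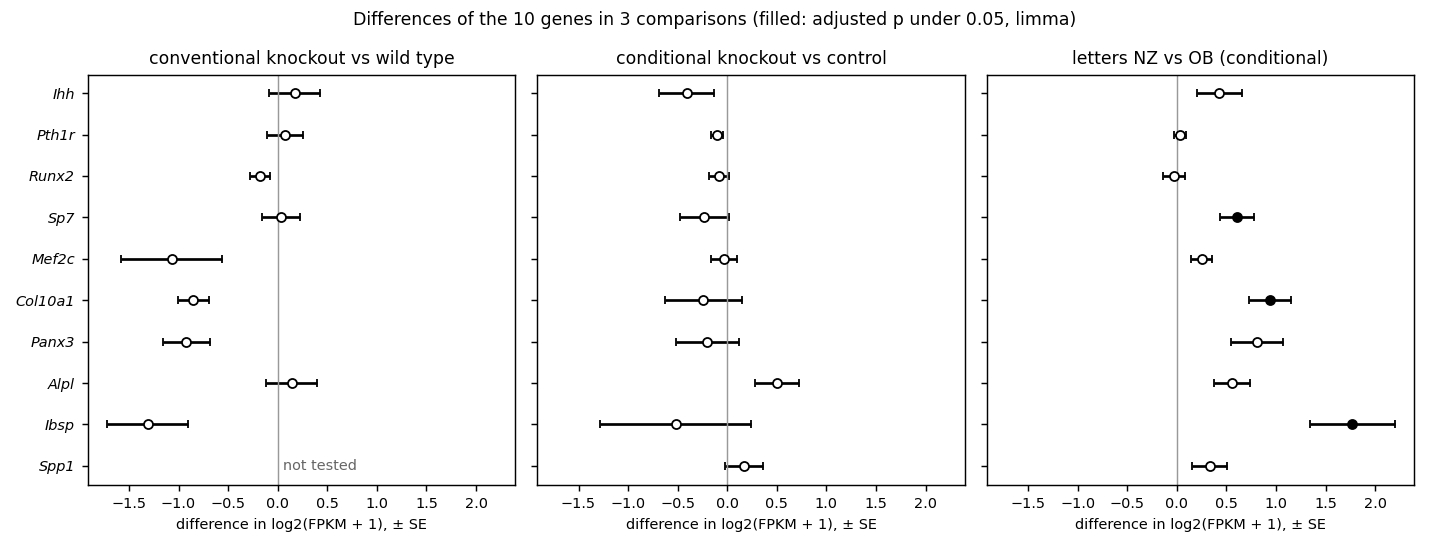
Difference in log2(FPKM + 1) with its SE for each gene in the conventional knockout against wild type, the conditional knockout against control and the NZ against OB libraries of the conditional table. Filled points passed limma's adjusted p of 0.05: Col10a1, Ibsp and Sp7 in NZ against OB, and none in the genotype comparisons.

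The sign of 6 of these 10 differences depended on the libraries lettered OC, both of which are controls. With column letters as a term, the differences became 0.63 for Col10a1, 0.17 for Ihh, 1.25 for Ibsp, 0.34 for Sp7, 0.19 for Mef2c and 0.35 for Panx3, none of them called. With the OC libraries left out they were 0.28, 0.01, 0.57, 0.1, 0.09 and 0.05, none called. Each of these is smaller than the SE of that gene with all libraries. Among NZ libraries alone (2 knockouts, 2 controls) the knockout was higher by 0.96 for Col10a1, 1.61 for Ibsp and 0.93 for Alpl, and among OB libraries (5 knockouts, 1 control) by 0.39, 0.79 and 0.81. Letters and genotype are mixed unevenly, since no knockout carries OC or OA, so a genotype difference and a letter difference cannot be told apart for those libraries. The summed FPKM of the 14 chondrocyte genes was 807 and 1060 in the OC controls. NZ libraries ran from 597 to 913 and OB libraries from 403 to 814, so the lower OC control lay within both ranges. The part of cartilage in these values was not tested.

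**Figure D4:**
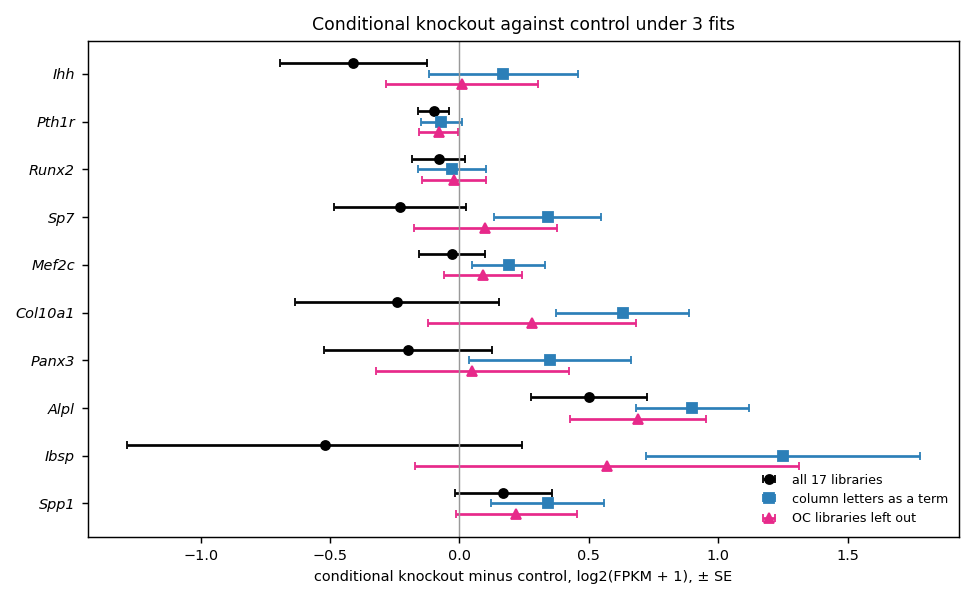
Conditional knockout minus control in log2(FPKM + 1), with SE, for each gene with all 17 libraries, with column letters as a term and with the OC libraries left out. Col10a1, Ihh, Ibsp, Sp7, Mef2c and Panx3 lie below 0 with all libraries and above 0 under the other fits, with Ibsp going from -0.52 to 1.25 and 0.57.

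In the 8 osteoblast matrix genes tested all had lower estimates, none called, with a median of -0.17. Phex stood at 4.12 ± 0.78 FPKM in the conditional knockouts and 6.89 ± 1.63 in controls (adjusted p = 0.161). All 14 chondrocyte genes had lower estimates, none called, with a median of -0.28. These directions depended on the letters: with letters as a term 2 of 8 osteoblast matrix and 4 of 14 chondrocyte genes had lower estimates (medians 0.21 and 0.15), and without the OC libraries 3 of 8 and 10 of 14 (0.02 and -0.08), none called. Mmp9, a gelatinase of osteoclasts and other cells, stood at 4.34 ± 0.903 in knockouts and 2.75 ± 0.577 in controls (adjusted p = 0.355), and Bmp6, a bone morphogenetic protein of hypertrophic cartilage, at 1.11 ± 0.171 and 1.54 ± 0.384 (adjusted p = 0.576). With letters as a term Phex differed by -0.35 and Mmp9 by 0.61, neither called.

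Conditional heterozygotes gave no call among the members against controls, where 0.00774% of genes were called, nor did knockouts against heterozygotes, where 0.0774% were. Against controls the largest estimate was that of Ibsp, at 1.8 ± 2.65 FPKM in heterozygotes (-0.94 ± 0.82, adjusted p = 0.759), with libraries of 2.81, 6.03, 0, 0.116 and 0.0316. The 0 is heterozygote 3, and a count of 0 in that library allows up to 0.121 FPKM, taking 3 fragments as the limit. Spp1 had the smallest unadjusted p of the members in knockouts against heterozygotes, at 3.78 ± 1.1 and 2.58 ± 1.03 FPKM (0.43 ± 0.19, adjusted p = 0.93).

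The NZ and OB libraries of the conditional table were also compared. With genotype in the fit, 3 of 10 members were higher in NZ than in OB libraries, where 3.25% of 12918 genes were called higher and 9.18% in either direction (1186 genes). Of the 10, 9 had higher estimates in NZ, with a median of 0.49 against -0.02 for all genes.
Col10a1 was at 2.28 ± 1.23 FPKM in the 5 NZ libraries and 0.824 ± 0.362 in the 9 OB libraries, a difference of 0.94 ± 0.21 (limma adjusted p = 0.0217). The NZ values ran from 1.06 to 3.68 and the OB values from 0.342 to 1.38, so the sets overlapped slightly. Ibsp was at 4.05 ± 4.32 in NZ, with a range of 0.838 to 11.6, and at 0.604 ± 1.07 in OB, with a range of 0 to 3.23 (1.77 ± 0.43, adjusted p = 0.0274). Sp7 was at 3.57 ± 0.552 in NZ and 2.27 ± 0.863 in OB (0.61 ± 0.17, adjusted p = 0.0395). For each of these 3 genes all 5 NZ libraries were above the OB mean. Panx3 (7.77 ± 2.08 and 4.35 ± 1.73, adjusted p = 0.0589) and Alpl (6.48 ± 2.38 and 4.88 ± 2.06, adjusted p = 0.0619) did not pass. Ihh, Spp1, Mef2c, Pth1r and Runx2 differed by 0.43, 0.33, 0.25, 0.03 and -0.03, with adjusted p between 0.164 and 0.856.

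Of 17 libraries left out in turn, 10 ended the call of Sp7, 3 that of Col10a1 and 3 that of Ibsp. Without control 3 or without heterozygote 1 no member was called, and the number of genes called dropped from 1186 to 14 and 10. Without knockout 1 the called member was Col10a1 and without knockout 2 it was Ibsp. The differences themselves moved little, from 0.83 to 1.12 for Col10a1, from 1.41 to 2.02 for Ibsp and from 0.56 to 0.67 for Sp7 when any 1 library was left out. Without knockout 5 the members called were 5. Apart from control 3 and heterozygote 1, leaving out a library gave at least 494 genes called, without knockout 2, and at most 1596 of 12918.

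Other cartilage and bone genes moved between the same libraries. Of the 8 osteoblast matrix genes tested, 5 were higher in NZ, namely Col1a1, the main bone collagen (370.0 ± 47.3 FPKM against 265.0 ± 54.5, adjusted p = 0.0322), Sparc, or osteonectin (adjusted p = 0.0276), Omd, or osteomodulin (adjusted p = 0.0303), Smpd3, a sphingomyelinase needed for bone mineral (adjusted p = 0.0345), and Postn, or periostin (adjusted p = 0.0406). Of 14 chondrocyte genes 5 were higher, namely Hapln1, Matn3, Comp, Lect1 and Matn1, with adjusted p from 0.0237 to 0.0408. The last gene of each of these 2 groups of 5 was named after its value was seen. Of 4 other terminal cartilage genes tested 3 had higher estimates in NZ and 2 were called. Phospho1, a phosphatase of mineralising matrix, was at 3.1 ± 0.589 in NZ and 1.7 ± 0.538 in OB (adjusted p = 0.0213). Clec11a, an osteogenic growth factor, was at 3.19 ± 0.583 and 1.69 ± 0.765 (adjusted p = 0.0214). Of 10 other osteoblast regulators tested 8 had lower and 2 higher estimates in NZ, with a median of -0.12. The 1 called was Bmp2, a growth factor that induces bone, which was lower in NZ (6.52 ± 0.786 against 9.59 ± 2.21, adjusted p = 0.0256). Of 7 other mineralisation genes tested 3 were higher (Phospho1 and Smpd3, already named, and Mgp, matrix Gla protein, an inhibitor of mineral) and 1 was lower, Slc20a1, a phosphate transporter (22.6 ± 1.3 against 27.0 ± 2.25, adjusted p = 0.0147). Of the 2 other pannexins Panx1 was lower (13.6 ± 0.916 against 15.5 ± 0.993, adjusted p = 0.0364). None of the 9 other genes of the hedgehog loop was called. Markers of other cells also moved, with 2 of 8 macrophage genes (Adgre1 and C1qb), 1 of 5 endothelial genes (Emcn) and 1 of 3 osteoclast genes (Ctsk) called higher in NZ and 0 of 7 muscle genes. Estimates were higher in NZ for all 8 macrophage genes (median 0.33), all 5 endothelial genes (0.22) and all 7 muscle genes (0.2). Of the 3 osteoclast genes 2 had higher and 1 lower estimates (median 0.12). The 5 forelimb mesenchyme genes went the other way, all with lower estimates in NZ (median -0.22), none called. The summed FPKM of the 8 macrophage genes ran from 63.2 to 76.7 in NZ and from 45.0 to 67.0 in OB, and that of the 5 endothelial genes from 104.0 to 116.0 and from 80.2 to 105.0. The part of these cells in the values of the 10 genes was not tested. What the letters stand for is not given in the labels, so they are named here only as letters.

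In the conventional table, CH libraries were set against CL with genotype in the fit. Of 9 members 2 were called, where 31.3% of 12717 genes were. Pth1r was higher in CH (66.7 ± 9.97 FPKM, n = 3, against 52.8 ± 3.02, n = 6, 0.32 ± 0.1, limma adjusted p = 0.0462), and Mef2c was lower (13.6 ± 8.44 against 24.2 ± 4.91, -1.01 ± 0.27, adjusted p = 0.0386). A share of 2 in 9 is below that of all genes. Col10a1 (1.78 ± 0.957 and 1.75 ± 0.83) differed by 0.01 ± 0.14. Pth1r was also the member, of 9, whose libraries did not overlap, where 34.6% of genes did not. Spp1, not tested, was at 0.415, 0.493 and 0.555 in CH and between 0.875 and 1.78 in CL, without overlap. Knockout 1 had the lowest Mef2c of the CH libraries, 3.94 FPKM against 17.3 and 19.5, and the highest Pth1r. Without it Mef2c differed by -0.52 and kept its call (adjusted p = 0.0213), while Pth1r differed by 0.18 and lost it (adjusted p = 0.0772). Without wild type 1 Mef2c also kept its call and Pth1r did not. Over 18 settings the adjusted p ran from 0.00237 to 0.0908 for Mef2c and from 0.0183 to 0.0998 for Pth1r. Both calls were lost with any of several other libraries left out: without heterozygote 3, wild type 2 or wild type 3 the number of genes called went from 3977 to 1, and without heterozygote 2, knockout 2 or knockout 3 to 513, 262 and 1447, with no member called in any of these 6 cases.

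Within the conditional table Col10a1 correlated with the other members to differing degrees. Over the 17 libraries its Spearman correlation was 0.88 with Sp7, 0.82 with Panx3, 0.76 with Ibsp and 0.70 with Ihh. It was 0.56 with Alpl, 0.53 with Runx2, 0.45 with Spp1, 0.41 with Pth1r and 0.35 with Mef2c. The order differed over the 9 conventional libraries, at 0.93 with Ibsp, 0.92 with Panx3, 0.55 with Mef2c and 0.47 with Runx2. There it was 0.32 with Pth1r, 0.30 with Sp7, 0.23 with Ihh, 0.20 with Alpl and 0.07 with Spp1. These are descriptions, since the points share a library, its depth and its column letters. Heterozygote 3 had the lowest Col10a1 (0.342 FPKM, 14 fragments) and no Ibsp fragment, and control 4 had the highest of both (6.31 and 26.8 FPKM, 312 and 801 fragments). Knockout 4 stood off that pattern, with 1.38 FPKM of Col10a1 and 0 of Ibsp, where a count of 0 allows up to 0.111.

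**Figure D5:**
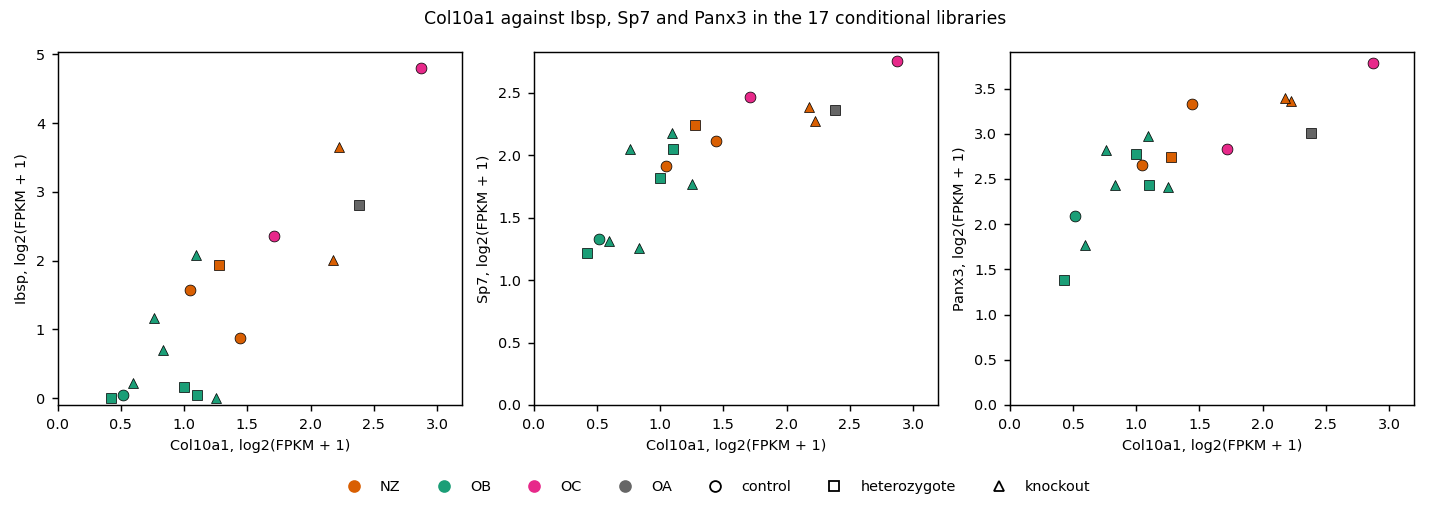
Col10a1 against Ibsp, Sp7 and Panx3 in the 17 conditional libraries, each axis as log2(FPKM + 1), with colour for the column letters and shape for the genotype. Control 4 (OC) is at the top right in each panel, at 6.31 FPKM of Col10a1, and most OB libraries of every genotype sit at the lower left.

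With predicted genes (Gm and Rik symbols) left out, 12390 tested genes were ranked by Spearman correlation over the conditional libraries. Among these the 3 genes most like Col10a1 were Fbln7, a fibulin (0.958), Sgms2, a sphingomyelin synthase (0.944), and Itga10, a collagen-binding integrin (0.897). Over the conventional libraries the same genes gave 0.433, 0.967 and 0.65. For Sp7 they were Smpd3 (0.936), Sgms2 (0.924) and Krt1, a keratin (0.9), and in the conventional libraries 0.85, 0.233 and 0.55. Smpd3 is also in the list of osteoblast matrix genes, and Sgms2 is in both sets of 3.

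Ibsp and Spp1 belong to a cluster of mineral-binding matrix genes on chromosome 5, with Dspp (104170712 to 104180127), Dmp1 (104202613 to 104214102), Ibsp (104299171 to 104311469), Mepe (104325329 to 104338611) and Spp1 (104435118 to 104441050), all on the plus strand of build mm10 in GENCODE M21. At this stage the neighbours differed widely. Sparcl1, at one flank, had a median of 26.1 FPKM in the conventional libraries and 23.8 in the conditional ones, and Pkd2, at the other flank, 40.1 and 33.0. Between them Ibsp had medians of 0.805 and 1.25 and Spp1 1.01 and 3.29, while Dspp, Dmp1 and Mepe were barely on. Spp1 shares exonic bases with Gm42793 on its own strand, so the counting could split reads between them.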

How the data were processed

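PolyA RNA of forelimbs was sequenced from stranded mRNA libraries, per the labels' protocols. The submitters' processing notes name bcl2fastq, TopHat2, Bowtie2, Cufflinks and build mm10, with no versions. The deposited values are FPKM per gene, made by the authors, in 1 table for each way of removing Hic1. Counts and read depth are not given, so precision was read from fragment steps in low values. FPKM summed to 410482 to 490248 per library in the conventional table and 436559 to 497121 in the conditional one. A total of 27 symbols shown as dates in the conditional table were restored from the other table, and 1 empty line per table was dropped.

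Each table was fitted apart with limma 3.58.1 in R 4.3.3 on log2(FPKM + 1), keeping genes that averaged 1 FPKM or more, with a mean-variance trend, all 3 genotype groups sharing the spread and Benjamini-Hochberg adjustment. Differences on this scale understate those of low genes. A call is an adjusted p under 0.05. Letters of the column names were compared with genotype as a term. The fits were tested on simulated data. Tables were handled with pandas 2.3.3 and numpy 2.4.6. Alternatives covered the pseudocount, filter, scaling, weights, samples, letters, replicate block and leaving out each library.

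Same-numbered conventional libraries deviated together (r from 0.244 to 0.717 over 9 pairs, median 0.506). Number 1 also marks the CH letters, and CL libraries of different numbers gave r up to 0.508, so numbers and letters are not separated. The main fits hold the genotype group only, and the replicate number entered as a block only among the alternatives. The members and gene lists were chosen with earlier results of these data known. All 10 members are named, with up to 4 genes per companion list and comparison, those of smallest p, the 3 genes most correlated with Col10a1 and with Sp7, and the neighbours of Ibsp. Sequences are from RefSeq (GRCm38.p6) and gene positions from GENCODE M21.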

Additional observations from a re-analysis of the deposited data

Results flagged for a closer look

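Of 30 combinations of a conditional group and a gene, 5 held a library far from the rest of its group, by the gap to its nearest neighbour relative to the range. The genes share libraries and some are strongly skewed, so this number was not set against a rate expected by chance. Ibsp stood at 26.8 FPKM in control 4, where the next control was at 4.11, and at 11.6 in knockout 1, where the next knockout was at 3.23. Col10a1 stood at 4.22 in heterozygote 2, the OA library, where the next was at 1.42. Ihh stood at 5.0 in heterozygote 5, with the next at 2.44. Pth1r stood at 42.0 in heterozygote 3, below the next at 48.4. Heterozygote 3 also had the lowest Col10a1 of the table. The causes were not tested.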

How the results depend on the processing

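Genes called, conventional knockout against wild type (3), became 1 with no filter, 5 with quantile scaling, 980 with array weights, 1 with the 2 groups alone, 1 with the replicate block and 8 with letters as a term. Heterozygote against wild type (0) became 1 with array weights, 2 with 2 groups and 1 without CH, and knockout against heterozygote (1) became 36 with array weights. Conditional knockout against control (34) became 122 with array weights, 17 without OC and 10 without NZ, and 26 with the block. Heterozygote against control (1) became 0 with a pseudocount of 0.1, no filter, the block, letters, or without OC or NZ. Knockout against heterozygote (10) became 29 with array weights and 5 without NZ. NZ against OB (1186) became 642 with TPM scaling and 1975 with array weights, and CH against CL (3977) became 1194 with no filter, 824 with TPM and 1478 without the genotype term. With array weights, members called became 3 in the conventional knockout, where 980 of 12717 genes were called. They became 5 for NZ against OB, where 1975 of 12918 genes were called with array weights. For CH against CL members called became 1 with no filter, 0 with TPM, 0 without the genotype term and 1 without knockouts.

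Signs turned in the conventional knockout for Ihh (-0.06 with array weights, -0.11 without CH), Pth1r (-0.01 quantile, -0.03, -0.05), Alpl (-0.01, -0.10) and Sp7 (-0.02 TPM, -0.15, -0.19). In the conditional knockout they turned with letters as a term for Col10a1 (0.63), Ihh (0.17), Ibsp (1.25), Sp7 (0.34), Mef2c (0.19) and Panx3 (0.35), and without OC (0.28, 0.01, 0.57, 0.10, 0.09, 0.05). Pth1r in NZ against OB was -0.0 with TPM.

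Leaving out 1 library, genes called ran from 1 to 5, 0 to 2 and 1 to 2 in the conventional comparisons as ordered above, 17 to 46, 0 to 1 and 5 to 16 in the conditional ones, 10 to 1596 for NZ against OB and 1 to 3952 for CH against CL, with 0 to 5 and 0 to 3 members in these last comparisons. Differences ran from -0.18 to 0.38 for Ihh, -0.14 to 0.19 for Pth1r, -0.15 to 0.34 for Alpl and -0.18 to 0.15 for Sp7 in the conventional knockout. In the conditional knockout they ran from -0.49 to 0.10 for Col10a1, -1.0 to 0.19 for Ibsp, -0.09 to 0.05 for Mef2c and -0.41 to 0.01 for Panx3, and in NZ against OB from -0.01 to 0.06 for Pth1r and -0.08 to 0.01 for Runx2. The cause was not tested. Fits without OC, NZ, CH or knockouts, and the gene lists without knockout 1, without OC or with letters, were chosen after seeing the data. The replicate block changed no call of a member. It could not be fitted for the letters. Conditional numbers share only a number (r from -0.308 to 0.444, median 0.025, with 4 of 15 libraries correlating best with their own number). With Ibsp at a few fragments in several libraries, counting error limits its low values.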
